A study of Mus musculus with 3 samples.

Results

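Mammals write DNA methylation onto cytosines that precede guanines, and 8 mouse genes for the enzymes and partners that set, copy or remove it were followed here through the testis. They are *Dnmt1* and *Uhrf1*, which copy the mark after replication, *Dnmt3a*, *Dnmt3b* and *Dnmt3l*, which set it anew, and *Tet1*, *Tet2* and *Tet3*, which oxidise it. The genes were chosen by name and not by their values, and they are 8 of the 36593 genes named in the count tables. All 8 were found in each of 3 libraries, with totals between 108 and 11888 UMIs (unique molecular identifiers, which count captured RNA molecules) per gene and library.

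The Scf-cKO library came from *Amh-cre; Scf fl/fl* mice, in which Cre is driven in Sertoli cells and removes the floxed *Scf* gene (listed as *Kitl*), the ligand of the receptor Kit. The CT library came from *Scf fl/fl* mice, which carry the floxed allele without Cre. Both were prepared at 6 weeks of age from testicular cells that had been stained for DNA content and sorted to take out haploid spermatids. The Tomato-negative library came from *DDX4-creER; R26tdTomato* mice, labelled as 8 weeks old, and was prepared 4 weeks after tamoxifen had turned on a red fluorescent protein in germ cells, by sorting away the Tomato-positive cells. All were C57BL/6 mice, each library pooled 3 of them, and no condition has a second library, so no test across animals was possible and no p-value is given. Ratios and levels carry exact 95% intervals that cover counting error only.

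After limits on detected genes and mitochondrial RNA, 7016 Scf-cKO, 5975 CT and 5085 Tomato-negative cells remained. Their median depth was 6326.5, 5911 and 10214 UMIs. Cells were clustered after integration of the 3 libraries, with the 8 genes kept out of the clustering, and each cluster was named "X-like" from marker genes. The names gave 7 germ cell classes, from undifferentiated spermatogonia-like cells to elongating spermatid-like cells, and 7 somatic classes, while 545 Scf-cKO, 118 CT and 142 Tomato-negative cells stayed unnamed. Spermatogonia were unevenly spread, with 828 Scf-cKO, 252 CT and 365 Tomato-negative undifferentiated-like cells and 1290, 1239 and 1261 differentiating-like cells. Of the differentiating-like cells, 28.4% in Scf-cKO and 68.0% in CT had a *Kit* UMI. Clustered without integration, 1229 of the 1290 Scf-cKO cells joined undifferentiated-like clusters. The class thus did not hold the same cells in both libraries, and the study itself described differentiating spermatogonia as depleted in the Scf-cKO testis. Later stages were almost missing from the Scf-cKO library, which held 132 preleptotene-like cells against 1619 in CT, 7 leptotene and zygotene-like cells against 327, and 21 pachytene-like cells against 1137. Germ cells were not absent from the Tomato-negative library despite the sort, and round spermatid-like cells were present in CT (265) and Tomato-negative (280) despite theirs. Between 9 and 15 cell barcodes were shared by any pair of libraries. A level is given only for classes of at least 30 cells in a library, as UMIs of the gene per 1000000 UMIs of the class (CPM). The targeted gene could be checked only loosely, because CT held 4 Sertoli-like cells: *Kitl* was at 42.0 CPM (11 UMIs) in 34 Scf-cKO Sertoli-like cells and at 129 CPM in 576 Tomato-negative Sertoli-like cells, and a 3′ count need not lie in the deleted part.

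By way of background, most methylation of the male germ line is laid down before birth in prospermatogonia, by Dnmt3a and the rodent-specific Dnmt3c with the catalytically inactive cofactor Dnmt3l. In the adult testis the pattern must be copied whenever spermatogonia divide and again when preleptotene cells replicate their DNA before meiosis. Uhrf1 recognises hemimethylated DNA and recruits Dnmt1, the copying enzyme, to it. Tet proteins oxidise methylcytosine, which opens a way to lose the mark.

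Promoter sequences of 3 of the genes are shown: *Dnmt1* and *Uhrf1*, whose levels per 1000000 UMIs are both highest in differentiating-like spermatogonia and part in meiosis, and *Dnmt3l*, the only member highest in spermatids. Where RefSeq has several starts, the one with the most CG dinucleotides is shown. For *Dnmt1* and *Uhrf1* that start lies downstream of their other starts, and all the bases shown for it lie within the gene. Each runs 5′ to 3′ on the gene's strand, from 250 bases before to 50 bases after a RefSeq start site on GRCm38.p6, and capitals mark CG, the dinucleotide that these enzymes act on. The counts come from RNA 3′ ends and cannot tell which of several start sites was used.
*Dnmt1*, chr9:20952574-20952873, minus strand: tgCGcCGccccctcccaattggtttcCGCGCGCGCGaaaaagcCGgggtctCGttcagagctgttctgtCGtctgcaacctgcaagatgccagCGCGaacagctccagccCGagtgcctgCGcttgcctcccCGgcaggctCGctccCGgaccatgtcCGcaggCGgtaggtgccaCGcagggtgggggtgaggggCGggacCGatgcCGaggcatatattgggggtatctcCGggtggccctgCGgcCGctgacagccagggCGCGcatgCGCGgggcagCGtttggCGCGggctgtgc
*Uhrf1*, chr17:56304063-56304362, plus strand: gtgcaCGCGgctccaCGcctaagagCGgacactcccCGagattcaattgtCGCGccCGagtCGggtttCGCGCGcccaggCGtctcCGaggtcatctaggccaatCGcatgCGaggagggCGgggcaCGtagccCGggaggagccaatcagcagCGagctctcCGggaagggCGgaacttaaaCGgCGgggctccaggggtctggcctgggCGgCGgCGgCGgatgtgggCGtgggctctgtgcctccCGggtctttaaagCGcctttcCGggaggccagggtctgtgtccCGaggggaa
*Dnmt3l*, chr10:78042037-78042336, plus strand: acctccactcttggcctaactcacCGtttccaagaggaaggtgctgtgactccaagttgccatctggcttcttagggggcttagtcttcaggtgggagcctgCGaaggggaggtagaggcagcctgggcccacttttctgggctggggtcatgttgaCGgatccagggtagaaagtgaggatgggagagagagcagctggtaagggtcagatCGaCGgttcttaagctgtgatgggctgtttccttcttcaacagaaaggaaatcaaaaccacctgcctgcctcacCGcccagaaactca

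The *Dnmt1* and *Uhrf1* promoters shown each hold 33 CG dinucleotides in 300 bases, and 8.56% of the 32851 promoters in the table hold as many or more. Other RefSeq starts hold 12 and 2 for *Dnmt1* and 12 for *Uhrf1*, so the number depends on the start. As many or more are held by 39.6% (for 12) and 85.9% (for 2) of promoters. The richest start was chosen for these genes but not for promoters at large, so the 8.56% follows in part from that choice. The *Dnmt3l* promoter shown holds 6, against a median of 7 over all promoters, and its other starts hold 4 and 3. Among the remaining genes the number was 57 for *Tet2*, between 18 and 47 for the starts of *Dnmt3a*, 30 for *Dnmt3b*, 22 for *Tet3* and 17 for *Tet1*. The CG dinucleotide reads the same on both strands, and it was the only motif searched for. No methylation was measured in these libraries.

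On GRCm38 the genes lie at chr9:20907209-20959888 (*Dnmt1*), chr17:56303321-56323486 (*Uhrf1*), chr12:3806007-3914443 (*Dnmt3a*), chr2:153649450-153687730 (*Dnmt3b*), chr10:78041947-78063622 (*Dnmt3l*), chr10:62804570-62908996 (*Tet1*), chr3:133463679-133545139 (*Tet2*) and chr6:83362373-83459084 (*Tet3*). *Dnmt3a*, *Dnmt3b*, *Dnmt3l*, *Tet2* and *Tet3* each overlap a gene on the other strand, and those partners had 26, 124, 46, 46 and 25 UMIs over all libraries. *Tet3* also overlaps 5430434F05Rik on its own strand, which had 498 UMIs, so some of its reads could have been assigned to that gene. *Tet1* overlaps Gm48353 on its own strand, which had 13 UMIs. Overlapping genes without a name in the count tables are left out. *Dnmt3c*, a close copy of *Dnmt3b*, had between 0 and 9 UMIs in any class of a library, and reads shared between the copies are uncertain.

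In CT, 7 of the 8 genes had their highest germ cell level in spermatogonia or preleptotene-like cells, before the chromosomes pair in meiotic prophase, as did 44.6% of the 21308 genes with at least 20 UMIs in CT germ cells. By mean UMIs per cell, a scale on which the deep pachytene-like cells weigh more, the numbers were 6 of 8 and 30%, with *Uhrf1* then highest in pachytene-like cells (2.39 UMIs per cell, against 1.15 in differentiating-like cells). The exception was *Dnmt3l*, highest in round spermatid-like cells. Across all CT classes, somatic ones included, *Dnmt1*, *Uhrf1*, *Dnmt3b* and *Tet3* were highest in differentiating-like spermatogonia and *Dnmt3a* in undifferentiated-like spermatogonia, whereas *Tet1* and *Tet2* were highest in somatic cells. For *Dnmt3a* the interval overlapped that of the next class, vascular smooth muscle-like cells, as did that of *Tet3* with immune-like cells, so these orders are not settled by the counts.

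**Figure D1:**
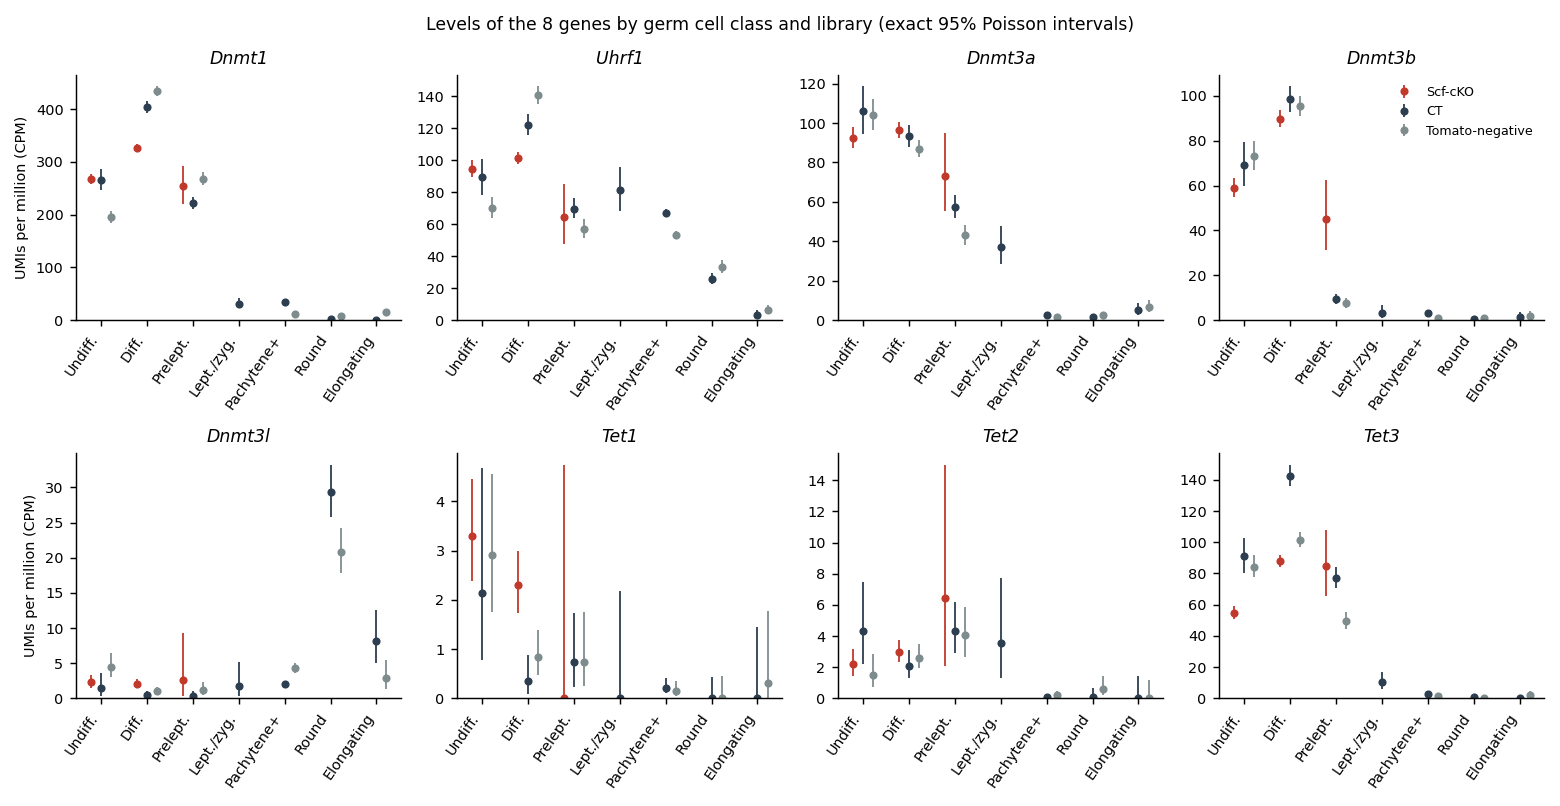
Levels of the 8 genes (UMIs per 1000000, linear axes that differ between panels) in 7 germ cell classes in stage order, for Scf-cKO (red), CT (dark blue) and Tomato-negative (grey) cells. Points are 1 library each and bars are exact 95% Poisson intervals. In CT pachytene-like cells *Dnmt3a*, *Dnmt3b* and *Tet3* were at or below 3.24 CPM, *Dnmt1* was at 33.5 CPM and *Uhrf1* was at 66.7 CPM, and *Dnmt3l* peaked in round spermatid-like cells at 29.4 CPM in CT.

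*Dnmt1*, the maintenance methyltransferase, was the most abundant member in spermatogonia. In CT it stood at 266 CPM (247 to 285) in undifferentiated-like, 404 CPM (392.4 to 416) in differentiating-like and 222 CPM (211 to 234) in preleptotene-like cells. It was 31.4 CPM (23.5 to 41.1) in leptotene and zygotene-like, 33.5 CPM (31.7 to 35.3) in pachytene-like and 3.06 CPM (1.996 to 4.48) in round spermatid-like cells. The sharpest step in CT before the spermatid stage lay at the entry into prophase, where the level was 7.07-fold lower (5.38 to 9.48) in leptotene and zygotene-like cells than in preleptotene-like cells. The size of that step depended on the processing. Over the other ways of processing, CT *Dnmt1* lay between 68.6 and 253 CPM in preleptotene-like cells. In leptotene and zygotene-like cells it lay between 12.1 and 139 CPM. Tomato-negative cells had 195, 433, 268, 10.8 and 7.73 CPM in undifferentiated-like, differentiating-like, preleptotene-like, pachytene-like and round spermatid-like cells. In both libraries the differentiating-like cells stood above all other classes, with intervals that did not overlap. Free RNA was put at 9.22 CPM of *Dnmt1* in CT and 16.6 CPM in Tomato-negative, so both Tomato-negative values from pachytene-like cells on, and the CT round spermatid-like value, were no higher than that background.

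*Uhrf1*, whose product brings Dnmt1 to newly copied DNA, was likewise highest in differentiating-like cells and lower in preleptotene-like cells, but parted from *Dnmt1* after that. In CT it stood at 89.1 CPM (78.4 to 101) in undifferentiated-like, 122 CPM (116 to 129) in differentiating-like and 69.7 CPM (63.5 to 76.3) in preleptotene-like cells. It was 81.1 CPM (68.1 to 95.9) in leptotene and zygotene-like, 66.7 CPM (64.2 to 69.2) in pachytene-like and 26.0 CPM (22.7 to 29.6) in round spermatid-like cells, and 3.13 CPM (1.35 to 6.17) in elongating spermatid-like cells. Free RNA was put at 5.67 CPM of *Uhrf1* in CT, so the elongating spermatid-like value was no higher than that background. At the entry into prophase the ratio of leptotene and zygotene-like to preleptotene-like cells was 1.16 (0.955 to 1.41), so no step was seen where *Dnmt1* was 7.07-fold lower in the same processing. Over the other ways of processing, *Uhrf1* in CT leptotene and zygotene-like cells lay between 31.2 and 107 CPM. Tomato-negative cells had 70.0, 141 and 57.1 CPM in the first 3 classes, 53.2 CPM in pachytene-like and 33.4 CPM in round spermatid-like cells. In that library *Uhrf1* was lower in preleptotene-like than in undifferentiated-like cells, whereas *Dnmt1* was higher (268 against 195 CPM).

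The parting of the pair was read from the ratio of *Dnmt1* to *Uhrf1* UMIs, each UMI being 1 tagged molecule whatever the length of the transcript. The ratio was 2.82, 2.98 and 2.79 in Scf-cKO, CT and Tomato-negative undifferentiated-like cells, and 3.23, 3.30 and 3.08 in differentiating-like cells. In preleptotene-like cells it was 3.96, 3.18 and 4.70. It was 0.387 (0.276 to 0.535) in CT leptotene and zygotene-like cells. In pachytene-like cells it was 0.502 (0.470 to 0.536) in CT and 0.204 (0.181 to 0.229) in Tomato-negative, and in round spermatid-like cells it was 0.118 and 0.232. Thus *Dnmt1* UMIs outnumbered *Uhrf1* UMIs in every spermatogonial and preleptotene-like sample, and *Uhrf1* UMIs outnumbered *Dnmt1* UMIs in every prophase and round spermatid-like sample shown. That order was not the same under all processing in CT leptotene and zygotene-like cells. Over the other ways of processing, the highest *Dnmt1* level there (139 CPM) exceeded the highest *Uhrf1* level (107 CPM). In elongating spermatid-like cells of the Tomato-negative library the ratio was 2.53 (1.46 to 4.55), at 15.2 CPM of *Dnmt1*, a level no higher than the 16.6 CPM that free RNA was estimated to add there.

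**Figure D2:**
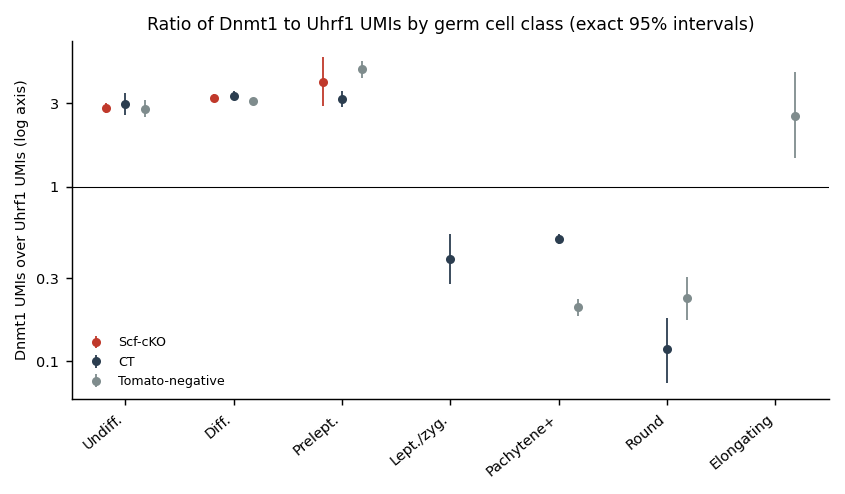
Ratio of *Dnmt1* to *Uhrf1* UMIs (log axis) in the germ cell classes in stage order, for Scf-cKO (red), CT (dark blue) and Tomato-negative (grey) cells, with exact 95% intervals and a line at 1. The spermatogonial and preleptotene-like points lie between 2.79 and 4.70, and the prophase and round spermatid-like points lie between 0.118 and 0.502.

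Pachytene-like cells were not uniform in *Dnmt1*. Their 5 CT clusters had 168, 53.3, 35.9, 13.9 and 11.2 CPM, whereas *Uhrf1* in those clusters was at 80.2, 72.3, 62.1, 73.2 and 64.4 CPM. In the first of these *Dnmt1* was thus above *Uhrf1*, the reverse of the class as a whole. The highest *Dnmt1* value came from a cluster of 279 shallow CT cells, with a median of 5410 UMIs per cell against 41532 over all CT pachytene-like cells, and S-phase genes were also higher in it (1391 CPM over 15 genes, against 795 CPM over the class). Most Tomato-negative pachytene-like cells, 444 of 524, fell in a cluster with 8.19 CPM of *Dnmt1* and 52.6 CPM of *Uhrf1*. The part of cluster make-up in the difference between the libraries was not tested.

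The share of cells with a *Uhrf1* UMI was 78.4% (75.9 to 80.7) of CT pachytene-like cells at a median of 41532 UMIs. It was 2.66% of CT myoid-like cells, somatic cells with little *Uhrf1*, at a median of 5263 UMIs. With each cell thinned to 1000 UMIs these shares were 6.42% and 0.666%. The *Uhrf1* signal in prophase was therefore above the share in a class with little of the transcript.

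Replication genes were higher in the same classes as *Dnmt1*. The summed level of 15 S-phase genes was 1540, 2400 and 1979 CPM in CT undifferentiated-like, differentiating-like and preleptotene-like cells, 842 and 795 CPM in leptotene and zygotene-like and pachytene-like cells, and 383 CPM in round spermatid-like cells. The CT genes closest to *Dnmt1* over 11 classes, among 14226 candidates, were *Rfc5* (r = 0.988), *Mcm6* (0.973) and *Hmgn2* (0.973). Rfc5 is a subunit of the clamp loader and Mcm6, itself among the S-phase genes, of the replicative helicase. Those closest to *Uhrf1* were *Cenpf* (0.989), *Espl1* (0.987) and *Kif11* (0.981), which act in chromosome segregation. These correlations describe classes of 1 library that share its depth.

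Among the de novo genes, *Dnmt3a* and *Dnmt3b* shared the spermatogonia but left them at different points. *Dnmt3a*, an active methyltransferase, stood in CT at 106 CPM (94.2 to 119) in undifferentiated-like, 93.5 CPM (88.1 to 99.3) in differentiating-like, 57.6 CPM (52.0 to 63.7) in preleptotene-like and 37.3 CPM (28.7 to 47.7) in leptotene and zygotene-like cells. It was 14.1-fold lower (10.1 to 19.4) in pachytene-like cells, at 2.65 CPM. Tomato-negative cells had 104, 86.9, 43.1 and 1.34 CPM in undifferentiated-like, differentiating-like, preleptotene-like and pachytene-like cells. In both libraries the level was stepwise lower until pachytene, but the first step was not resolved in CT. Differentiating-like over undifferentiated-like cells gave 0.883 (0.776 to 1.007) in CT and 0.835 (0.763 to 0.916) in Tomato-negative. Elongating spermatid-like cells stood somewhat above round spermatid-like cells, with 5.09 against 1.41 CPM in CT and 6.66 against 2.82 CPM in Tomato-negative. These last values rest on 12 to 23 UMIs each, and free RNA was put at 2.42 CPM in CT and 4.22 CPM in Tomato-negative.

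*Dnmt3b*, the other active de novo enzyme, stood in CT at 69.1 CPM (59.7 to 79.6) in undifferentiated-like and 98.5 CPM (92.8 to 104) in differentiating-like cells, and at 9.24 CPM (7.08 to 11.8) in preleptotene-like cells. Tomato-negative cells had 73.2, 95.5 and 7.49 CPM. Both libraries thus showed the same step between differentiating-like and preleptotene-like cells, where *Dnmt3b* was 10.7-fold lower (8.25 to 14.0) in CT and 12.8-fold lower (9.63 to 17.3) in Tomato-negative. The ratio of *Dnmt3b* to *Dnmt3a* UMIs was 0.652 in undifferentiated-like, 1.05 in differentiating-like and 0.160 (0.120 to 0.210) in preleptotene-like CT cells, and 0.704, 1.10 and 0.174 (0.126 to 0.235) in Tomato-negative. From preleptotene-like cells on *Dnmt3b* was below 10 CPM in every CT and Tomato-negative germ cell class shown. The CT genes closest in course were *Stox1* (r = 0.995), *Crybg2* (0.992) and *Plppr3* (0.990) for *Dnmt3b*, and *Fam168b* (0.975), *Fubp3* (0.973) and *Mat2b* (0.971) for *Dnmt3a*.

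*Dnmt3l*, the cofactor without catalytic activity, had the reverse course. In CT it stood at 1.43 CPM (0.390 to 3.67) in undifferentiated-like and 0.517 CPM in differentiating-like cells, 2.04 CPM (1.63 to 2.53) in pachytene-like cells, 29.4 CPM (25.8 to 33.3) in round spermatid-like cells and 8.22 CPM (5.09 to 12.6) in elongating spermatid-like cells. Tomato-negative cells had 4.45, 1.06, 4.26, 20.9 (17.8 to 24.2) and 2.86 CPM in these classes. Round spermatid-like cells exceeded pachytene-like cells 14.4-fold (11.2 to 18.7) in CT and 4.89-fold (3.89 to 6.16) in Tomato-negative. The level differed between the larger clusters of round spermatid-like cells: it was 37.6 CPM in CT and 33.2 CPM in Tomato-negative in the cluster in which *Uhrf1* had 11.3 and 11.4 CPM, and 16.8 and 11.7 CPM in the cluster in which *Uhrf1* had 49.5 and 47.1 CPM.

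A *Dnmt3l* UMI was seen in 48.3% (42.1 to 54.5) of CT round spermatid-like cells at a median of 31523 UMIs, and in 0.499% of CT myoid-like cells at a median of 5263 UMIs. At 1000 UMIs per cell the shares were 3.83% in round spermatid-like and 0% in myoid-like cells, where 0 of 601 cells allow a share of up to 0.612% by the exact interval. Free RNA was put at 0.402 CPM of *Dnmt3l* in CT and 0.540 CPM in Tomato-negative. Both libraries with round spermatid-like cells had been sorted against haploid or labelled germ cells, so these are cells that passed the sort. The genes with the most similar CT course were *Insl5* (r = 0.995), *Gm15852* (0.989) and *Adam26a* (0.986).

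The Tet genes divided into *Tet3*, a spermatogonial as well as somatic gene, and *Tet1* and *Tet2*, which were somatic. *Tet3* stood in CT at 90.9 CPM (80.1 to 103) in undifferentiated-like, 143 CPM (136 to 150) in differentiating-like and 77.0 CPM (70.5 to 84.0) in preleptotene-like cells. It was 7.22-fold lower (4.53 to 12.3) in leptotene and zygotene-like cells, at 10.7 CPM, and 2.998 CPM in pachytene-like cells. Tomato-negative cells had 84.4, 102, 49.9 and 1.37 CPM in undifferentiated-like, differentiating-like, preleptotene-like and pachytene-like cells. Free RNA was put at 3.05 CPM of *Tet3* in CT and 4.46 CPM in Tomato-negative, so both pachytene-like values were no higher than that background. Over the 11 CT classes *Tet3* followed *Dnmt3a* most closely of the other members (r = 0.924), as a description over classes of 1 library. Outside the members the closest were *Slc23a2* (0.981), *Taldo1* (0.976) and *Npc1* (0.971).

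*Tet1* was at or below 3.29 CPM in every germ cell class of every library. Within that range it was 6.23-fold lower (1.48 to 30.03) in CT differentiating-like than undifferentiated-like cells, on 4 and 6 UMIs, and 3.48-fold lower (1.68 to 7.37) in Tomato-negative, on 15 and 19 UMIs. No *Tet1* UMI was seen in round spermatid-like cells of either library, where 3 UMIs would have been 0.353 CPM in CT and 0.368 CPM in Tomato-negative. *Tet2* reached no more than 6.43 CPM in germ cells and was at 0.0983 CPM in CT and 0.244 CPM in Tomato-negative pachytene-like cells. Free RNA was put at 0.360 CPM of *Tet2* in CT and 0.579 CPM in Tomato-negative, so these pachytene-like values were no higher than that background.

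The undifferentiated-like class was then divided by *Gfra1*, the GDNF receptor of the most stem-like spermatogonia, into clusters with high and low *Gfra1*. Gfra1-high cells were 429 of 828 in Scf-cKO (51.8%), 100 of 252 in CT (39.7%) and 122 of 365 in Tomato-negative (33.4%). *Neurog3*, a marker of progenitors, was 2.56, 4.31 and 2.31 CPM in the Gfra1-high cells and 25.9, 28.9 and 17.8 CPM in the Gfra1-low cells. The 8 genes were not used in the division, and 5 of them differed in the same direction in all 3 libraries, with intervals that excluded 1. No share over all genes was computed for this division, so the count does not set these genes apart from others.

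*Dnmt1* was higher in Gfra1-high cells, with 327, 387 and 308 CPM in Scf-cKO, CT and Tomato-negative, against 216, 205 and 155 CPM in Gfra1-low cells. The ratio was 1.52 (1.42 to 1.62), 1.89 (1.63 to 2.19) and 1.99 (1.78 to 2.23). *Uhrf1* moved with it, with 121, 138 and 126 CPM in Gfra1-high against 72.9, 64.8 and 49.6 CPM in Gfra1-low cells. The 15 S-phase genes summed to 2018, 1978 and 1812 CPM in the larger Gfra1-high cluster and 1402, 1315 and 1191 CPM in the larger Gfra1-low cluster of Scf-cKO, CT and Tomato-negative, and their part in the *Dnmt1* and *Uhrf1* values was not tested. *Dnmt3a* and *Dnmt3b* were the other way round. *Dnmt3a* had 67.2, 78.7 and 65.2 CPM in Gfra1-high against 114, 119 and 118 CPM in Gfra1-low cells. *Dnmt3b* had 33.7, 45.3 and 44.4 CPM in Gfra1-high against 80.4, 80.9 and 83.6 CPM in Gfra1-low cells.

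*Tet3* differed most among the genes above 10 CPM. It had 11.8 CPM (9.18 to 14.9), 22.7 CPM (14.0 to 34.6) and 26.0 CPM (18.9 to 34.7) in Scf-cKO, CT and Tomato-negative Gfra1-high cells, against 91.5, 125 and 106 CPM in Gfra1-low cells. It was thus 7.76-fold (6.04 to 10.1), 5.51-fold (3.52 to 9.07) and 4.07-fold (2.99 to 5.65) lower in Gfra1-high cells. *Dnmt3l* had 0, 0 and 1 UMIs in Scf-cKO, CT and Tomato-negative Gfra1-high cells, against 29, 4 and 28 UMIs in Gfra1-low cells, and the CT interval of the ratio included 1. *Tet2* was also low in Gfra1-high cells, on 3, 1 and 1 UMIs, with an interval that excluded 1 in Scf-cKO alone, and *Tet1* showed no difference that its counts could resolve, with ratios of 0.885 (0.453 to 1.70), 0.403 (0.00851 to 3.60) and 0.325 (0.0364 to 1.37). The Gfra1-high cells were thus those with more of the copying genes and less of *Dnmt3a*, *Dnmt3b* and *Tet3*.

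**Figure D3:**
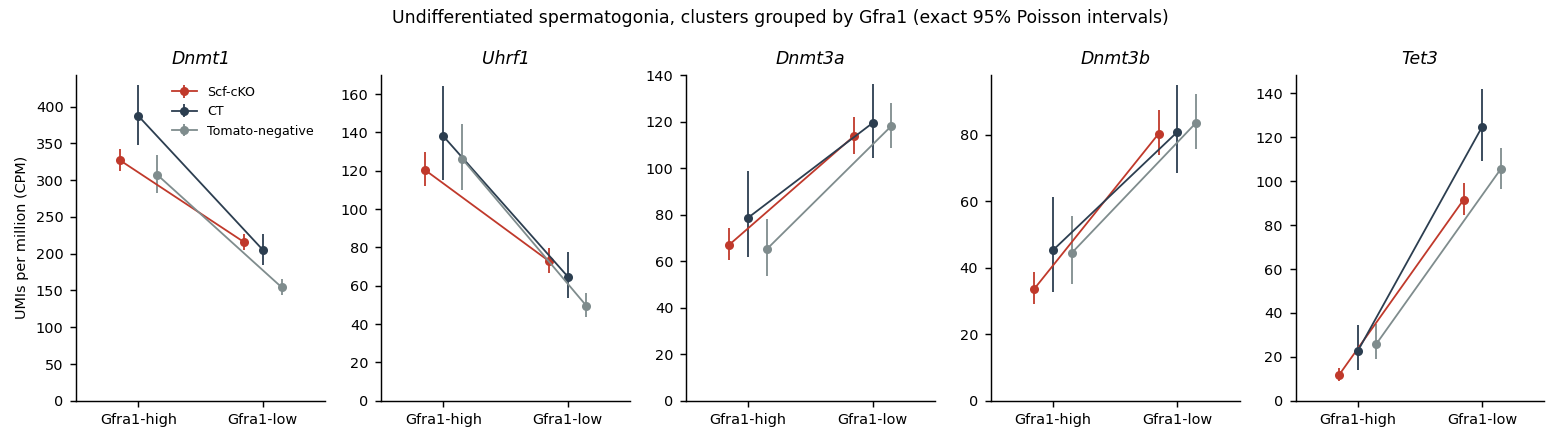
Levels of 5 genes (UMIs per 1000000) in undifferentiated-like cells of Gfra1-high clusters (left) and Gfra1-low clusters (right), for Scf-cKO (red), CT (dark blue) and Tomato-negative (grey) cells, with exact 95% Poisson intervals and lines that join a library's points. *Dnmt1* and *Uhrf1* were higher in Gfra1-high cells and *Dnmt3a*, *Dnmt3b* and *Tet3* were lower, in each of the 3 libraries.

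In somatic cells *Dnmt3a*, *Tet2* and *Tet3* were the main members, *Tet1* was seen in mesenchymal classes, and *Dnmt1* and *Uhrf1* were low. *Dnmt1* lay between 11.4 and 26.0 CPM in all somatic samples with a UMI except immune-like cells, which had 54.8 CPM in Scf-cKO, 56.5 CPM in CT and 23.0 CPM in Tomato-negative. *Uhrf1* did not exceed 10.2 CPM outside CT immune-like cells, which had 38.8 CPM (19.4 to 69.5) on 11 UMIs. *Dnmt3b* did not exceed 8.81 CPM in any somatic class, and the ratio of *Dnmt3b* to *Dnmt3a* UMIs was 0.0337, 0.0538 and 0.0192 in Scf-cKO, CT and Tomato-negative myoid-like cells. Free RNA was put at 2.26, 9.22 and 16.6 CPM of *Dnmt1* in the 3 libraries, so the Tomato-negative levels in Sertoli-like (12.96 CPM), myoid-like (13.1 CPM) and vascular smooth muscle-like cells (16.4 CPM) were no higher than that background.

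*Dnmt3a* stood at 56.8, 58.9 and 34.0 CPM in myoid-like cells of Scf-cKO, CT and Tomato-negative, while vascular smooth muscle-like cells had 70.6, 104 and 37.7 CPM. *Tet3* had its highest somatic level in vascular smooth muscle-like cells of Scf-cKO (112 CPM) and Tomato-negative (68.8 CPM), and in immune-like cells of CT (120.1 CPM, 83.1 to 168). *Tet2* was highest in immune-like cells of Scf-cKO (88.4 CPM) and Tomato-negative (125 CPM, 92.6 to 166), and in CT in Tcf21 stromal-like cells (96.1 CPM, 65.3 to 136), whose interval overlapped that of immune-like cells (81.2 CPM, 51.5 to 122). *Tet2* is best known as a gene of blood cells. The genes most like it over the CT classes were *Cxcl1* (r = 0.993), *Zfp36* (0.986) and *Hsd17b11* (0.985).

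*Tet1* stood at 31.5 CPM (28.3 to 34.9), 24.7 CPM (19.5 to 30.9) and 22.9 CPM (15.9 to 31.8) in Scf-cKO, CT and Tomato-negative myoid-like cells, which stand for the contractile layer of the tubule wall. It was 26.4, 12.4 and 16.2 CPM in Tcf21 stromal-like cells, with intervals that overlapped those of myoid-like cells in each library. Its closest CT genes were *F2r* (r = 0.994), *Nt5e* (0.992) and *Rbfox3* (0.990). In immune-like cells it was seen with 1 UMI in Scf-cKO and none in CT or Tomato-negative. Of the 708 *Tet1* UMIs of Scf-cKO, 362 lay in myoid-like and 216 in Tcf21 stromal-like cells, and of the 108 UMIs of CT 78 lay in myoid-like cells. The 151 UMIs of Tomato-negative were more spread, with 39 in Sertoli-like and 35 in myoid-like cells. *Dnmt3l* had 0 UMIs in 1992 Scf-cKO myoid-like cells, but 13 UMIs (7.37 CPM, 3.93 to 12.6) in 141 Scf-cKO Leydig-like cells and 21 UMIs (2.57 CPM) in 1576 Scf-cKO Tcf21 stromal-like cells.

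Sertoli-like cells had 72.5 CPM of *Dnmt3a* and 80.1 CPM of *Tet3* in Scf-cKO, against 23.5 and 13.1 CPM in Tomato-negative, on 34 and 576 cells. Their markers differed too: the 9 Sertoli markers summed to 6591 CPM in Scf-cKO, against 29582 CPM in Tomato-negative, the 8 immune markers to 1728 against 16.8 CPM, the 7 myoid markers to 2132 against 567 CPM and the 7 Leydig markers to 709 against 28.2 CPM. The 10 markers of undifferentiated spermatogonia summed to 156 CPM in Scf-cKO and 157 CPM in Tomato-negative. The part of other cell types in the *Dnmt3a* and *Tet3* values was not tested. With 4 CT Sertoli-like cells there was no comparison within the *Scf* experiment.

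**Figure D4:**
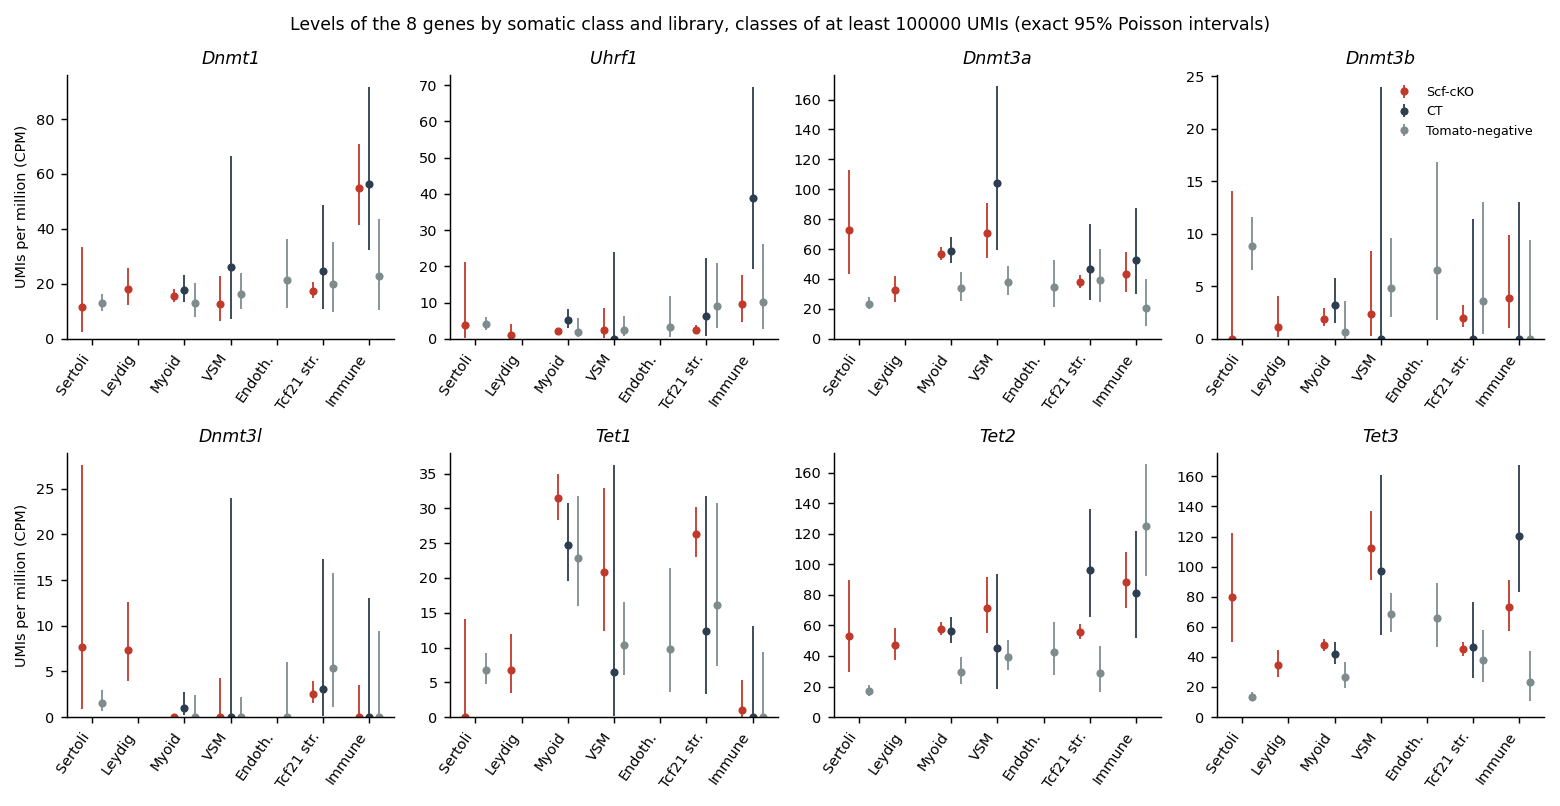
Levels of the 8 genes (UMIs per 1000000, linear axes that differ between panels) in 7 somatic classes for Scf-cKO (red), CT (dark blue) and Tomato-negative (grey) cells, with exact 95% Poisson intervals, for samples with at least 100000 UMIs in the class. VSM stands for vascular smooth muscle and Tcf21 str. for Tcf21 stromal. *Tet1* was highest in myoid-like cells (22.9 to 31.5 CPM), with intervals that overlapped those of Tcf21 stromal-like cells, and *Tet2* reached 125 CPM in Tomato-negative immune-like cells.

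The comparison of Scf-cKO with CT asks what the loss of *Scf* from Sertoli cells does to these genes in the cells that remain. It was possible in 7 classes, those that reached 30 cells in each of the pair. A gene was called past 2-fold where both libraries together had at least 20 UMIs and the ratio was at least 2 or at most 0.5. In bulk sums of this kind, a change within cells and a change in which cells make up the class cannot be told apart.

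In undifferentiated-like spermatogonia, 0 of 8 genes were past 2-fold, where 7.67% of 14767 genes were. *Dnmt1* was 267 CPM (258 to 276) in Scf-cKO and 266 CPM (247 to 285) in CT, a ratio of 1.005 (0.928 to 1.09). *Uhrf1* was 94.7 and 89.1 CPM, a ratio of 1.06 (0.927 to 1.22). For counting error alone, these intervals leave room for a modest difference in either direction but not for a 2-fold difference. They do not cover differences between animals or in processing, and as mean UMIs per cell the ratios were 1.40 and 1.48. *Dnmt3a* (0.873, 0.768 to 0.995) and *Dnmt3b* (0.854, 0.728 to 1.01) were slightly below 1. *Tet2* lay near the limit, at 0.511 (0.252 to 1.10) on 28 Scf-cKO and 12 CT UMIs. *Dnmt3l* (1.59, 0.558 to 6.22) and *Tet1* (1.53, 0.649 to 4.41) had wide intervals, and these sparse genes were past 2-fold in some other ways of processing: *Tet1* at a germ cell clustering resolution of 0.3 or 1.5, *Dnmt3l* without doublets, *Dnmt3l* and *Tet2* after subtraction of free RNA, and *Dnmt3l* and *Tet1* as mean UMIs per cell.

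*Tet3* departed most from 1 among the abundant genes, with 54.97 CPM (51.0 to 59.2) in Scf-cKO and 90.9 CPM (80.1 to 103) in CT undifferentiated-like cells, on 701 and 254 UMIs. The ratio was 0.605 (0.523 to 0.701), and it lay between 0.516 and 0.842 over all 10 other ways of processing. Tomato-negative cells had 84.4 CPM. The Scf-cKO class held more Gfra1-high cells, in which *Tet3* is low in every library, and the ratio was 0.521 (0.316 to 0.894) within Gfra1-high and 0.733 (0.630 to 0.856) within Gfra1-low cells. Of the 828 Scf-cKO cells, 153 Gfra1-low and 133 Gfra1-high cells lay in clusters that had 2 and 6 CT cells. Within the cluster of each division that held the most CT cells, the ratio was 0.392 (0.22 to 0.716) for Gfra1-high and 0.818 (0.697 to 0.963) for Gfra1-low cells. The part of cell make-up in the *Tet3* ratio was not tested beyond these values.

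In differentiating-like spermatogonia, 2 of 8 genes were past 2-fold, where 31.7% of 17234 genes were, so the members' share did not exceed that of genes at large. *Tet1* had 2.29 CPM (1.73 to 2.98) in Scf-cKO and 0.345 CPM (0.0939 to 0.882) in CT, on 55 and 4 UMIs, a ratio of 6.65 (2.46 to 25.3). *Dnmt3l* had 2.04 CPM (1.51 to 2.70) in Scf-cKO and 0.517 CPM (0.190 to 1.12) in CT, on 49 and 6 UMIs, a ratio of 3.95 (1.69 to 11.3). Both are low in these cells in every library, and with each cell thinned to 1000 UMIs neither had enough UMIs for the comparison, *Tet1* then being found in 1 Scf-cKO and 2 CT cells (a ratio of 0.479). *Tet3* had 87.7 CPM (84.0 to 91.6) in Scf-cKO and 143 CPM (136 to 150) in CT, a ratio of 0.615 (0.576 to 0.656), and as mean UMIs per cell a ratio of 1.22, with medians of 18071.5 UMIs per Scf-cKO and 8842 UMIs per CT cell. *Dnmt1* (0.808, 0.780 to 0.838) and *Uhrf1* (0.828, 0.775 to 0.885) were lower by less. As mean UMIs per cell they too were above 1, at 1.60 and 1.64, and 4 of 8 genes were past 2-fold, *Dnmt3a* (2.04) and *Tet2* (2.84) besides *Tet1* and *Dnmt3l*. No share over all genes was computed on that scale, on which the deeper Scf-cKO cells weigh more, so the count does not set the members apart. *Dnmt3b* was at 0.912 (0.849 to 0.981) but at 2.03 with at most 3500 genes per cell, and *Dnmt3a* was at 1.03 (0.958 to 1.11).

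The class itself did not hold the same cells in both libraries. *Kit*, the marker of differentiation, was at 30.5 CPM in Scf-cKO and 171 CPM in CT differentiating-like cells, *Gfra1* was at 19.4 and 3.70 CPM, and *Neurog3* was at 11.8 and 2.67 CPM. Clustered without integration, 1229 of the 1290 Scf-cKO cells (95.3%) joined undifferentiated-like clusters and 11 stayed differentiating-like, whereas 576 of 1239 CT cells (46.5%) stayed. The comparison in this class thus rests on integration. Without it, 2102 Scf-cKO and 341 CT cells formed the undifferentiated-like class, 0 of 8 genes were past 2-fold, and *Tet3* had a ratio of 0.714, *Dnmt1* of 1.02, *Dnmt3l* of 1.73 and *Tet1* of 1.498. Among differentiating-like cells with a *Kit* UMI, 367 in Scf-cKO and 842 in CT, 0 of 6 genes with enough UMIs were past 2-fold and the *Tet3* ratio was 0.696 (0.635 to 0.763), with *Kit* still at 104 against 235 CPM. *Tet1* (5.20, 1.43 to 28.4) and *Dnmt3l* (2.64, 0.845 to 9.68) had ratios past 2-fold there too but fewer than 20 UMIs. No share over all genes was computed without integration or for cells with a *Kit* UMI, so these counts of 0 are not set against genes at large.

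In preleptotene-like cells, 1 of 6 genes with enough UMIs was past 2-fold, where 17.6% of 11919 genes were. *Dnmt3b* had 45.0 CPM (31.4 to 62.6) in Scf-cKO and 9.24 CPM (7.08 to 11.8) in CT, on 35 and 62 UMIs, a ratio of 4.88 (3.13 to 7.50). All 35 Scf-cKO UMIs came from the same cluster of 73 cells. *Gfra1* was at 15.4 CPM in Scf-cKO and 0.447 CPM in CT preleptotene-like cells. Without integration, and with at most 3500 genes per cell, *Dnmt3b* had no Scf-cKO UMI in the class. *Dnmt1* (1.15, 0.984 to 1.33), *Uhrf1* (0.923, 0.675 to 1.24) and *Tet3* (1.10, 0.840 to 1.43) were not resolved from 1.

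**Figure D5:**
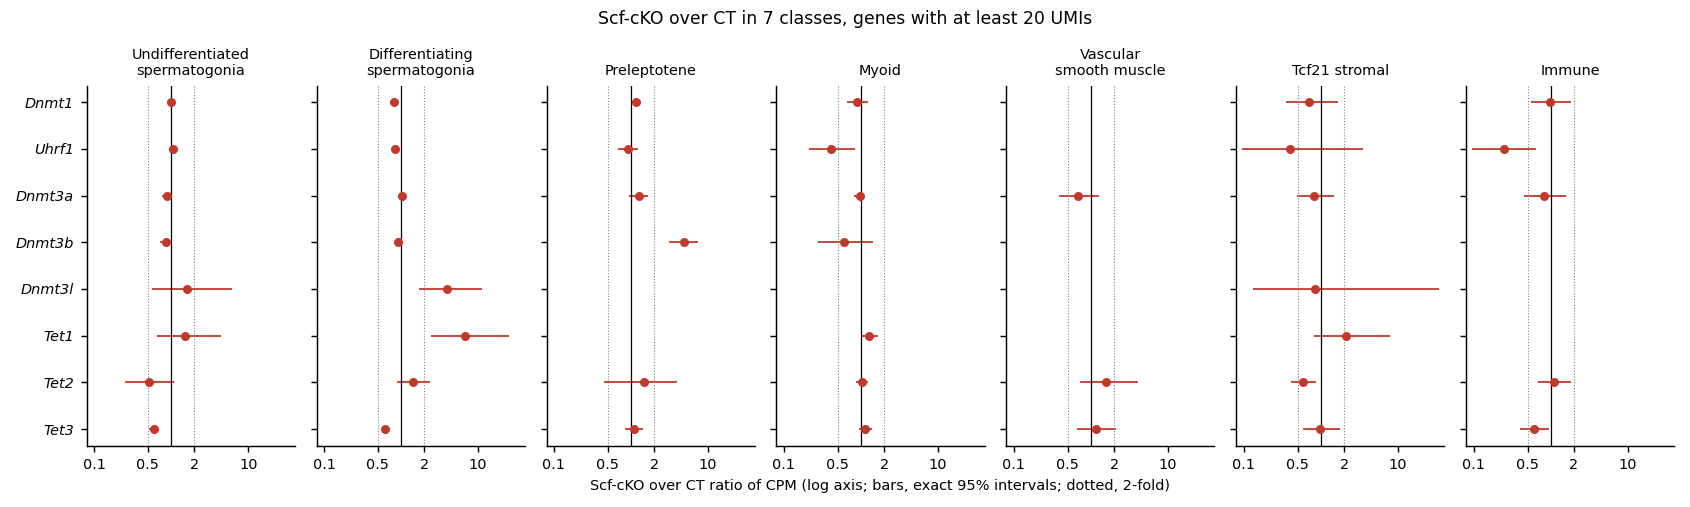
Ratio of Scf-cKO to CT level (CPM, log axis) of each gene with at least 20 UMIs in the 7 classes compared, with exact 95% intervals, a line at 1 and dotted lines at 2-fold. In undifferentiated-like spermatogonia no point lies past 2-fold and *Tet3* is at 0.605. In differentiating-like spermatogonia *Tet1* (6.65) and *Dnmt3l* (3.95) lie past it.

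In the somatic classes 4 of the 22 ratios were past 2-fold. In myoid-like cells 1 of 7 genes with enough UMIs was past 2-fold (12.3% of 13537 genes): *Uhrf1*, with 2.09 CPM in Scf-cKO and 5.07 CPM in CT, a ratio of 0.411 (0.210 to 0.829). Free RNA was put at 0.735 CPM of *Uhrf1* in Scf-cKO and 5.67 CPM in CT, so the CT level was no higher than that background. *Dnmt3a* (0.963, 0.817 to 1.14), *Tet2* (1.02, 0.867 to 1.22) and *Tet3* (1.13, 0.933 to 1.38) did not differ beyond counting error. Their intervals exclude 2-fold for counting error alone. In vascular smooth muscle-like cells 0 of 3 were past 2-fold (14.6% of 6697 genes). In Tcf21 stromal-like cells 2 of 7 were (18.4% of 12110 genes), *Uhrf1* at 0.394 on 20 Scf-cKO and 2 CT UMIs, and *Tet1* at 2.13 on 216 and 4 UMIs, both with intervals that include 1. The *Uhrf1* ratio was between 1.52 and 3.04 at a germ cell resolution of 1.5, after subtraction of free RNA or with classes set by each cell's marker score. *Tet2* was 55.8 CPM in Scf-cKO and 96.1 CPM in CT there, a ratio of 0.581 (0.404 to 0.866).

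In immune-like cells 1 of 5 was past 2-fold (20.8% of 6846 genes). It was *Uhrf1*, with 9.61 CPM in Scf-cKO and 38.8 CPM in CT, on 10 and 11 UMIs, a ratio of 0.247 (0.0942 to 0.641). The 15 S-phase genes had a summed level of 305 CPM in Scf-cKO and 643 CPM in CT immune-like cells. Their part in the *Uhrf1* value was not tested. *Tet3* was 73.0 CPM in Scf-cKO and 120.1 CPM in CT, a ratio of 0.608 (0.401 to 0.940).

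Other genes of the pathway were taken from a list of 31, of which 30 were in the files. In CT the 7 partners of maintenance were highest in spermatogonia or preleptotene-like cells in 5 cases. Examples are *Hells*, a chromatin remodeller needed for methylation, at 918 CPM in preleptotene-like cells, *Pcna*, the replication clamp, at 192 CPM in differentiating-like cells and *Cdca7*, the partner of Hells, at 201 CPM in undifferentiated-like cells. The exceptions were *Uhrf2*, the paralog of *Uhrf1*, highest in leptotene and zygotene-like cells (156 CPM), and *Usp7*, a deubiquitinase that binds Dnmt1, highest in round spermatid-like cells (398 CPM). Of the 6 partners of de novo methylation, 5 were highest before prophase, *Dnmt3c* on 1 UMI, among them *Piwil4* (31.1 CPM), *Spocd1* (21.1 CPM) and *Morc1* (109 CPM), which serve piRNA-directed methylation of transposons in fetal germ cells and were all highest in undifferentiated-like cells. Of the 7 readers of methylated DNA, 4 were highest in a somatic class. Of the 6 genes listed for removal of the mark, 3 were highest before prophase and 3 in a somatic class. Of the 4 listed for its protection, 2 were highest before prophase and 2 in later germ cells. No share over all genes was computed across these germ and somatic classes, so the counts do not set the groups apart.

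Between Scf-cKO and CT, 0 of 28 listed genes with enough UMIs were past 2-fold in undifferentiated-like cells, where 7.67% of all genes tested were. The median ratio was 1.003 against 0.985 over all genes tested. In differentiating-like cells 8 of 29 were past 2-fold, where 31.7% of all genes tested were, so the share of listed genes did not exceed that of genes at large. The median ratio was 0.991 against 0.968. The 4 that were higher in Scf-cKO were *Spocd1* (11.9, 7.55 to 19.97), *Piwil4* (4.68, 3.60 to 6.18), *Morc1* (3.78, 3.36 to 4.27) and *Mbd2* (2.08, 1.92 to 2.26), a reader of methylated DNA. The 4 that were lower were *Ctcfl* (0.175), a germline relative of the insulator protein CTCF, *Zbtb4* (0.394), *Gadd45b* (0.459) and *Tdg* (0.488), the glycosylase that excises oxidised methylcytosine. In CT *Spocd1*, *Piwil4* and *Morc1* had 21.1, 31.1 and 109 CPM in undifferentiated-like and 1.64, 5.34 and 27.2 CPM in differentiating-like cells. The part of the class make-up given above in these ratios was not tested. In preleptotene-like cells 3 of 25 were past 2-fold (17.6% of all genes tested), *Morc1* (6.53) and *Apex1* (2.04) higher and *Gadd45a* (0.399) lower. In somatic classes the number was 0 of 24 in myoid-like cells (12.3% of all genes tested). It was 2 of 17 in vascular smooth muscle-like cells (14.6%), *Pcna* (2.28, 0.928 to 7.26) and *Mbd1* (3.12, 0.801 to 26.8). These rest on 5 and 2 CT UMIs, with intervals that include 1. The number was 1 of 24 in Tcf21 stromal-like cells (18.4%), *Gadd45a* at 5.38 on 409 Scf-cKO and 3 CT UMIs. In immune-like cells it was 2 of 18 (20.8%), *Hells* (0.254) and *Lig1* (0.394). Hells and the ligase Lig1 act at replication forks, and their ratios lay on the same side of 1 as that of *Uhrf1* in immune-like cells. So did the other maintenance partners with enough UMIs there, *Uhrf2* (0.965), *Usp7* (0.898), *Smchd1* (0.821) and *Pcna* (0.683). A link between these ratios and that of *Uhrf1* was not tested.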

How the data were processed

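Testicular cells of 3 libraries were profiled with Chromium 3′ chemistry, and the deposited matrices hold UMI counts per gene and cell as the authors made them, with Cell Ranger 2.1.1 and GRCm38 named in the submitters' processing notes. Kept cells had over 200 and under 7500 detected genes and under 10% mitochondrial counts. The study's methods give 3500 genes, whereas 7500 leaves 11209 cells of the deposited merged table and was known from earlier results. Depth kept was 66941050 Scf-cKO, 79286222 CT and 87927908 Tomato-negative UMIs. Free RNA was put at 1.18%, 8.49% and 12.2% of counts in these libraries, from spermatid genes in somatic classes, and its expected level of each gene was set beside low values.

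Libraries were integrated in Seurat 5.3.0 (R 4.3.3) over 20 dimensions and 2000 variable genes, without the 8 genes and the related list. Germ cells (*Ddx4* in at least 50% of a cluster's cells, or high *Tnp1*) were clustered again with 25 components at resolution 1.0, somatic cells with 10 at 0.3. Clusters were named for the class of highest mean marker z-score if at least 3 of that class's markers were each seen in 10% of cells, and stayed unnamed where another class had more markers among their top 10 genes, or another compartment scored at least 0.6 as high. These naming rules were set after clusters were seen, and members and lists were chosen with earlier results of these data known. Scrublet called 332 Scf-cKO, 174 CT and 213 Tomato-negative doublets, which were kept.

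Levels are summed UMIs per 1000000 with exact 95% Poisson intervals, ratios have exact conditional binomial intervals and shares exact Clopper-Pearson intervals (Python 3.11.15, scipy 1.17.1). With 1 library per condition, all cover counting error only. A library at 0 was set to 3 counts in ratios past 2-fold. The ratio and its interval were tested on simulated data. Named genes were the members, the 3 genes with the highest Pearson correlation of log2(CPM + 10) with each over CT classes (at least 200 UMIs, no markers), and the listed genes past 2-fold. Alternatives were the 3500-gene limit, no upper limit, no integration, other resolutions, doublets removed, cells thinned, free RNA subtracted, classes by each cell's marker score, and mean UMIs per cell.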

Additional observations from a re-analysis of the deposited data

How the results depend on the processing

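No paired analysis was possible because each condition had 1 library. The number of genes at their highest in CT germ cells before prophase was 7 of 8 in every alternative but mean UMIs per cell, which gave 6 (without *Uhrf1*). The number past 2-fold between Scf-cKO and CT undifferentiated-like cells, 0 of 8, was 1 at germ cell resolutions of 0.3 and 1.5 (*Tet1*), 1 without doublets (*Dnmt3l*), 2 after subtraction of free RNA (*Dnmt3l* and *Tet2*) and 2 as mean UMIs per cell (*Dnmt3l* and *Tet1*). The number in differentiating-like cells, 2 of 8, was 0 with cells thinned to 1000 UMIs, where 5 genes had enough UMIs, 1 with classes set by marker score (*Tet1*), 4 as mean UMIs per cell (with *Dnmt3a* and *Tet2*), and 0 of 6 in cells with a *Kit* UMI, where *Tet1* (5.20) and *Dnmt3l* (2.64) fell under the UMI minimum. The *Kit* alternative and the counts per cell were chosen after seeing the data. The number in differentiating-like cells was also 2 with at most 3500 genes per cell, but for *Dnmt3b* and *Tet2*, and had no value without integration, which left 13 Scf-cKO cells in the class. No share over all genes was computed for the numbers past 2-fold in the alternatives, so they are not set against genes at large. Of 431 single ratios 63 crossed 1, 15 of them as mean UMIs per cell, and 7 of the 63 were past 2-fold before or after: *Uhrf1* in Tcf21 stromal-like cells was 1.66 at resolution 1.5, 3.04 after subtraction of free RNA and 1.52 by marker score; *Dnmt3b* was 2.03 in differentiating-like cells with at most 3500 genes, and 0 in preleptotene-like cells under that limit and without integration; and *Tet1* in differentiating-like cells was 0.479 after thinning. The causes were not tested. Of the other ratios 389 kept their side of the 2-fold limit, 56 of them crossing 1 within it, 18 moved past it and 17 moved inside it. Of 2592 levels, 712 left their counting interval. Depth limits *Tet1*, *Tet2* and *Dnmt3l* in germ cells most, with 12 or fewer CT UMIs each in undifferentiated-like cells.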
